A study of Homo sapiens with 6 samples.

Results

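The control HL60 cells of a SKI knockout study were described on their own, from 3 of its 6 RNA-seq libraries, chosen by their titles. HL60 cells were established from human acute leukaemia and resemble promyelocytes, and they were grown here in RPMI with 10% fetal calf serum. The control libraries came from the CRISPR/Cas9 control line numbered 1, so they represent a single line, and the labels do not say whether the 3 replicates were separate cultures. The other 3 libraries, from a line in which the transcriptional co-repressor gene SKI was targeted, were not analysed here. All spreads below are therefore spreads between libraries of 1 line and may be technical.

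Neutrophils mature in the marrow through a fixed order of stages. Promyelocytes make the azurophil (primary) granules that hold myeloperoxidase and serine proteases, myelocytes and metamyelocytes then make secondary and tertiary granules with lactoferrin and gelatinase, and surface receptors of the mature cell come last. The transcription factors PU.1 (gene SPI1), C/EBP-alpha (CEBPA) and GFI1 act early in this order and C/EBP-epsilon (CEBPE) later, and HL60 is widely used because it can be pushed along it. The line is also known for amplified copies of MYC.

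The 3 libraries held 49684362, 58553247 and 56500779 reads over 56638 gene names, and 24224 to 25003 names had at least 1 read in a library. Levels are given as TPM, in which reads are divided by gene length and scaled to the same total in each library, and stand in the order of replicates 1, 2 and 3. A gene was called on at 1 TPM or more in all 3 libraries and silent below 0.1 TPM in all 3. For a gene of 1000 bases, 3 reads were worth 0.167 to 0.191 TPM, so silence is a statement about this depth. By these rules 13413 names (23.7%) were on and 33093 (58.4%) silent, and 28497 had no read in any library. Of 18427 names annotated as protein-coding, 9915 (53.8%) were on and 6193 (33.6%) silent. Any count below is read against these 2 protein-coding shares.

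The 4 genes used to check the label were all on. MPO, which encodes myeloperoxidase, stood at 10622, 12700 and 10701 TPM, a mean of 11341 ± 1177 (SD, n = 3). MYC, the proliferation-driving transcription factor gene, was at 1455, 1118 and 1681 TPM. CEBPE was at 894, 764 and 938 TPM. AZU1, the gene of the granule protein azurocidin, was at 74.0, 84.0 and 64.2 TPM. Control 2 had the highest MPO and AZU1 and the lowest MYC and CEBPE of the 3 libraries. SKI itself was on at 31.99, 45.17 and 48.53 TPM.

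Because granule genes and CEBPE carry much of the description, the 250 bases before the transcription start of 4 of them are shown, from RefSeq on GRCh38.p14 (the counts themselves were made on hg19). Capitals mark matches on either strand to a PU.1 core, GAGGAA, or to a C/EBP core, TTNNGNAA. The regions are chr19:827587-827836 (plus strand) for AZU1, chr19:840749-840998 (plus) for the proteinase 3 gene PRTN3, chr14:24576251-24576500 (minus) for the cathepsin G gene CTSG and chr14:23119256-23119505 (minus) for CEBPE.
AZU1: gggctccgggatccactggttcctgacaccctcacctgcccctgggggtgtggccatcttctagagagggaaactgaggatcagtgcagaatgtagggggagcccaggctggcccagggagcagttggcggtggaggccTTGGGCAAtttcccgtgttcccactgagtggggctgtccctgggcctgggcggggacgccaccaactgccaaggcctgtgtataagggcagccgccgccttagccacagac
PRTN3: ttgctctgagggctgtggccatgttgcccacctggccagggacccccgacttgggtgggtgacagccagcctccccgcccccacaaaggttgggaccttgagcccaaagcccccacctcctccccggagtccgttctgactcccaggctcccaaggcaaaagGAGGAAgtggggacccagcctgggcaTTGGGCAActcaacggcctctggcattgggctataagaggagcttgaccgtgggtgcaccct
CTSG: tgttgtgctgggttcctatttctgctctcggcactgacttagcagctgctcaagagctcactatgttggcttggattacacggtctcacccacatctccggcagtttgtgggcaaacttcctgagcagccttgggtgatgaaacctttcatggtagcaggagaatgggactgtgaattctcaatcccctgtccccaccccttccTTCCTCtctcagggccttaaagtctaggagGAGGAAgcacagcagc
CEBPE: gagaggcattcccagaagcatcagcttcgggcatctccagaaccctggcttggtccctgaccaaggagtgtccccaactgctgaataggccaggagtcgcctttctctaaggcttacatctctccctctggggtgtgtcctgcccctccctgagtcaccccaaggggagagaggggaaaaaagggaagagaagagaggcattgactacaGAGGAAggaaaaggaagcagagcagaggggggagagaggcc
PRTN3 had a PU.1 core at -88 to -83 and a C/EBP core at -62 to -55, counted from the start. CTSG had PU.1 cores at -46 to -41 (on the opposite strand) and -16 to -11, CEBPE had 1 at -41 to -36, and AZU1 had a C/EBP core at -111 to -104. Such short motifs are common: of 35116 RefSeq promoters of the same length, 23.6% held the PU.1 core and 33.2% the C/EBP core. The shares were 23.2% and 24.3% in promoters of genes that were on, and 24.1% and 35.0% in those of silent protein-coding genes. A match is a description of letters, not of binding.

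Housekeeping transcripts and MPO dominated the RNA. By mean TPM the leading names included the mitochondrial MT-CO2 at 16536, the 84-base feature AC139149.1 at 13951, RPS12 at 13693, MT-CO3 at 12631, the elongation factor gene EEF2 at 11920, MPO at 11341, RPL13A at 10336, EEF1G at 9821 and MT-CO1 at 8964. MPO thus ranked 6 of all names, between EEF2 and RPL13A. These places are those at the deposited lengths. A later annotation has 957 bases for AC139149.1 in place of 84. With the later lengths for protein-coding names RPS18 went from 1372 to 7406 TPM and ACTG1 from 3404 to 6665. MPO went from 11341 to 11469 TPM. EEF2 took the most reads, 1.33%, 1.35% and 1.74% of the library, and MPO took 1.22%, 1.41% and 1.17%. The 10 most abundant names held 11.9% ± 0.294 of TPM and the 100 most abundant 39.0% ± 1.51 (SD, n = 3). The 130 names of at least 1000 TPM held 42.6% of TPM, while 6567 names between 10 and 100 TPM held 22.8%.

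All 79 ribosomal protein genes listed were on, and together they held 20.5%, 17.1% and 18.5% of TPM. The 13 protein genes of mitochondrial DNA held 8.06% ± 0.426 of TPM. All 20 translation factors, 24 proliferation genes, 17 targets of the amino acid stress factor ATF4, 15 chaperones of the endoplasmic reticulum and 14 cholesterol synthesis genes were on too. Among them PCNA, the DNA polymerase clamp, stood at 564, 741 and 528 TPM and MKI67, the Ki-67 antigen gene, at 68.1, 92.5 and 81.2 TPM. ATF4 was at 1911, 1751 and 1698 TPM, and its target TRIB3 at 749, 755 and 791 TPM. Of 23 glycolysis genes 22 were on, led by GAPDH at 9034, 8868 and 8959 TPM. The exception was HK3, a hexokinase of mature myeloid cells, with at most 0.0179 TPM.

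**Figure D1:**
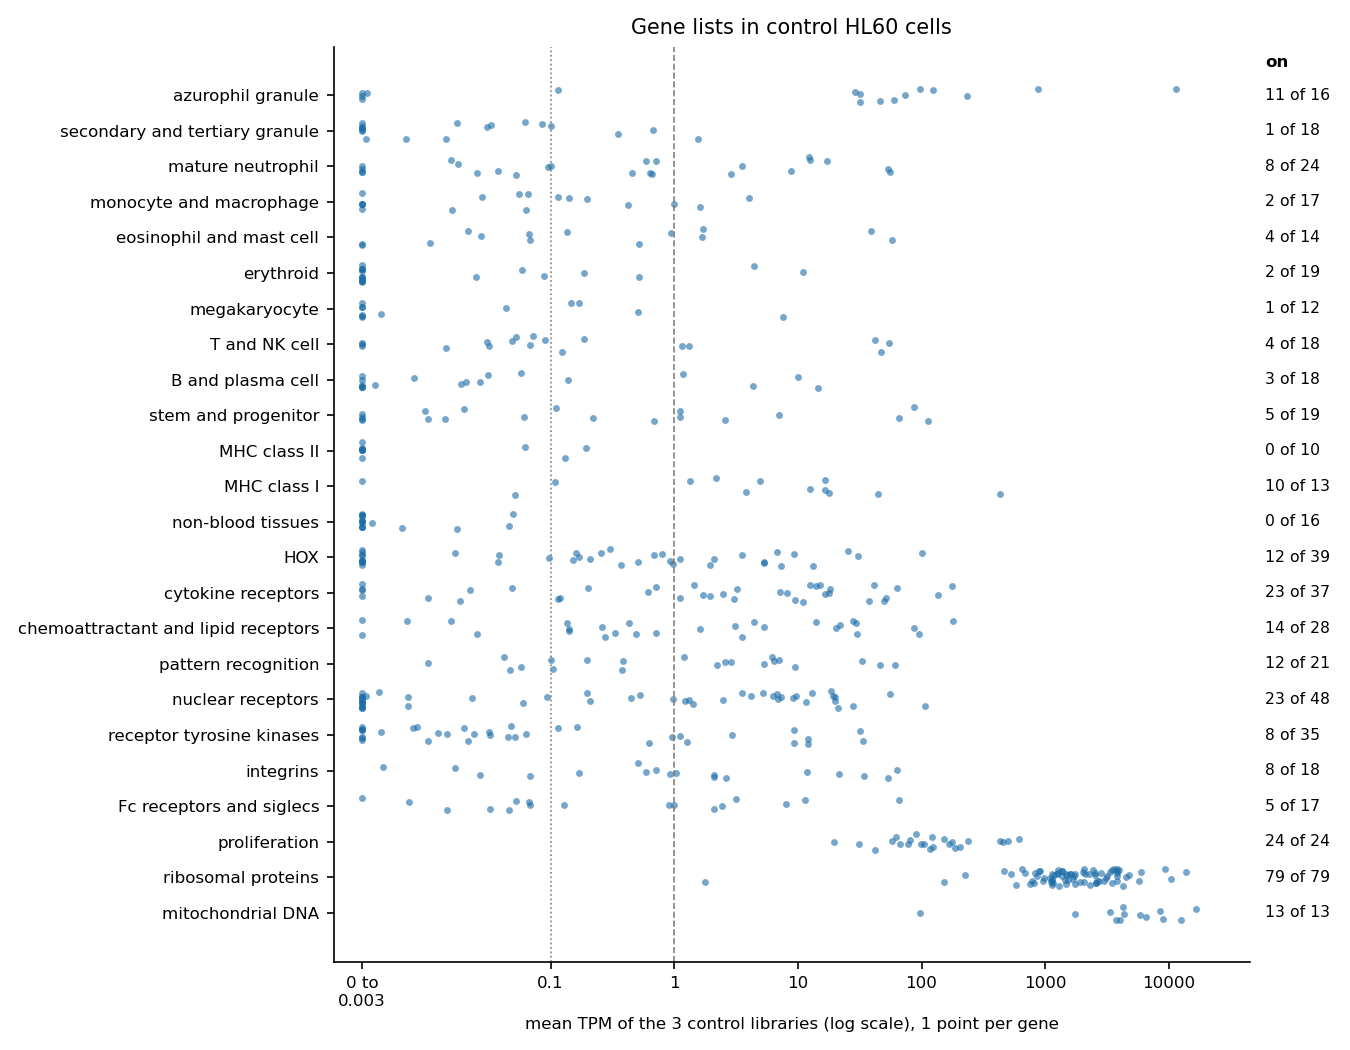
Mean TPM of each gene (1 point per gene, log scale) for 24 gene lists, with the number of members on printed at the right. The dashed line is 1 TPM and the dotted line 0.1 TPM, and genes from 0 to 0.003 TPM are drawn at the left edge. Ribosomal, mitochondrial and proliferation genes lay to the right of the dashed line, whereas all 16 genes of non-blood tissues lay to the left of the dotted one.

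Azurophil granule genes formed the strongest lineage programme by summed TPM, but not all of them were on. Of 16 members 11 were on (68.75%) and 4 silent (25%), against 53.8% and 33.6% of all protein-coding names. MPO came first, 13.0 ± 1.16 times the next member (SD, n = 3), the proteoglycan gene SRGN, which stood at 910, 927 and 783 TPM. The protease gene CTSG followed at 278, 180 and 240 TPM and the tetraspanin gene CD63 at 137, 115 and 119 TPM. RNASE2, for an RNase of granules, was at 95.8, 107 and 90.7 TPM. RNASE2 and RNASE3 could also stand in the eosinophil and mast cell list described below. The ranges over the 3 libraries did not overlap between neighbours in this order down to AZU1. AZU1 overlapped with the serine protease gene PRSS57, at 69.1, 42.4 and 68.5 TPM, and PRSS57 with the lysozyme gene LYZ, at 50.9, 48.2 and 39.9 TPM. CTSC, PRTN3 and RNASE3 came next, and CTSC overlapped with PRTN3 and PRTN3 with RNASE3. CTSC makes the enzyme that activates the granule proteases and was at 29.6, 35.8 and 30.7 TPM. PRTN3 was at 24.95, 41.12 and 29.13 TPM, and RNASE3 at 26.1, 33.1 and 28.4 TPM.

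Neutrophil elastase was the exception among the proteases. ELANE had 2, 4 and 0 reads, whereas AZU1 had 2082, 2697 and 1959. BPI, for a bactericidal protein of the same granules, had 0, 1 and 0 reads. The defensin genes DEFA1, DEFA3 and DEFA4 had no read in any library. DEFA1 and DEFA3 are near-identical copies whose shared reads may not have been counted, so their 0 is uncertain; for DEFA4, 3 reads would have been 0.309 TPM at most.

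Genes of later granules were nearly all below the level called on. Of 18 secondary and tertiary granule genes 1 was on and 13 were silent. The one on was CHI3L1, for a chitinase-like protein, at 2.20, 1.21 and 1.26 TPM. CAMP, the cathelicidin gene, was at 0.854, 0.225 and 0.946 TPM. LTF, the lactoferrin gene, had 2, 1 and 0 reads and LCN2, for lipocalin 2, none. Their sum over all 18 members was 3.821, 1.997 and 2.998 TPM, against 12317, 14314 and 12195 TPM for the 16 azurophil members. Of the azurophil mean of 12942 TPM, MPO alone gave 11341 and SRGN 873.

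Of 24 genes of mature neutrophils 8 were on and 9 silent. CYBA, a subunit of the phagocyte NADPH oxidase, was at 61.1, 46.1 and 59.2 TPM and the integrin gene ITGB2 at 57.9, 43.6 and 58.8 TPM. The granulocyte colony-stimulating factor receptor gene CSF3R was on at 13.8, 11.3 and 12.8 TPM. The formyl peptide receptor genes FPR1 and FPR2 had under 0.1 TPM in each library, and ALPL, CXCR1, FCGR3B and S100A12 had no read. ITGAM, the CD11b gene, chosen here after its value was seen, had 0.663, 0.522 and 0.580 TPM. The 7 oxidase genes divided in the same way, with RAC2, RAC1, CYBA and NCF4 on. The membrane subunit gene CYBB was at 0.612, 0.700 and 0.617 TPM, and NCF1 was silent. The deposited lengths of CYBB and NCF1 are 2 times those of a later annotation, and with the later length CYBB had a mean of 1.27 TPM and was on. NCF1 also has near-identical pseudogene copies.

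**Figure D2:**
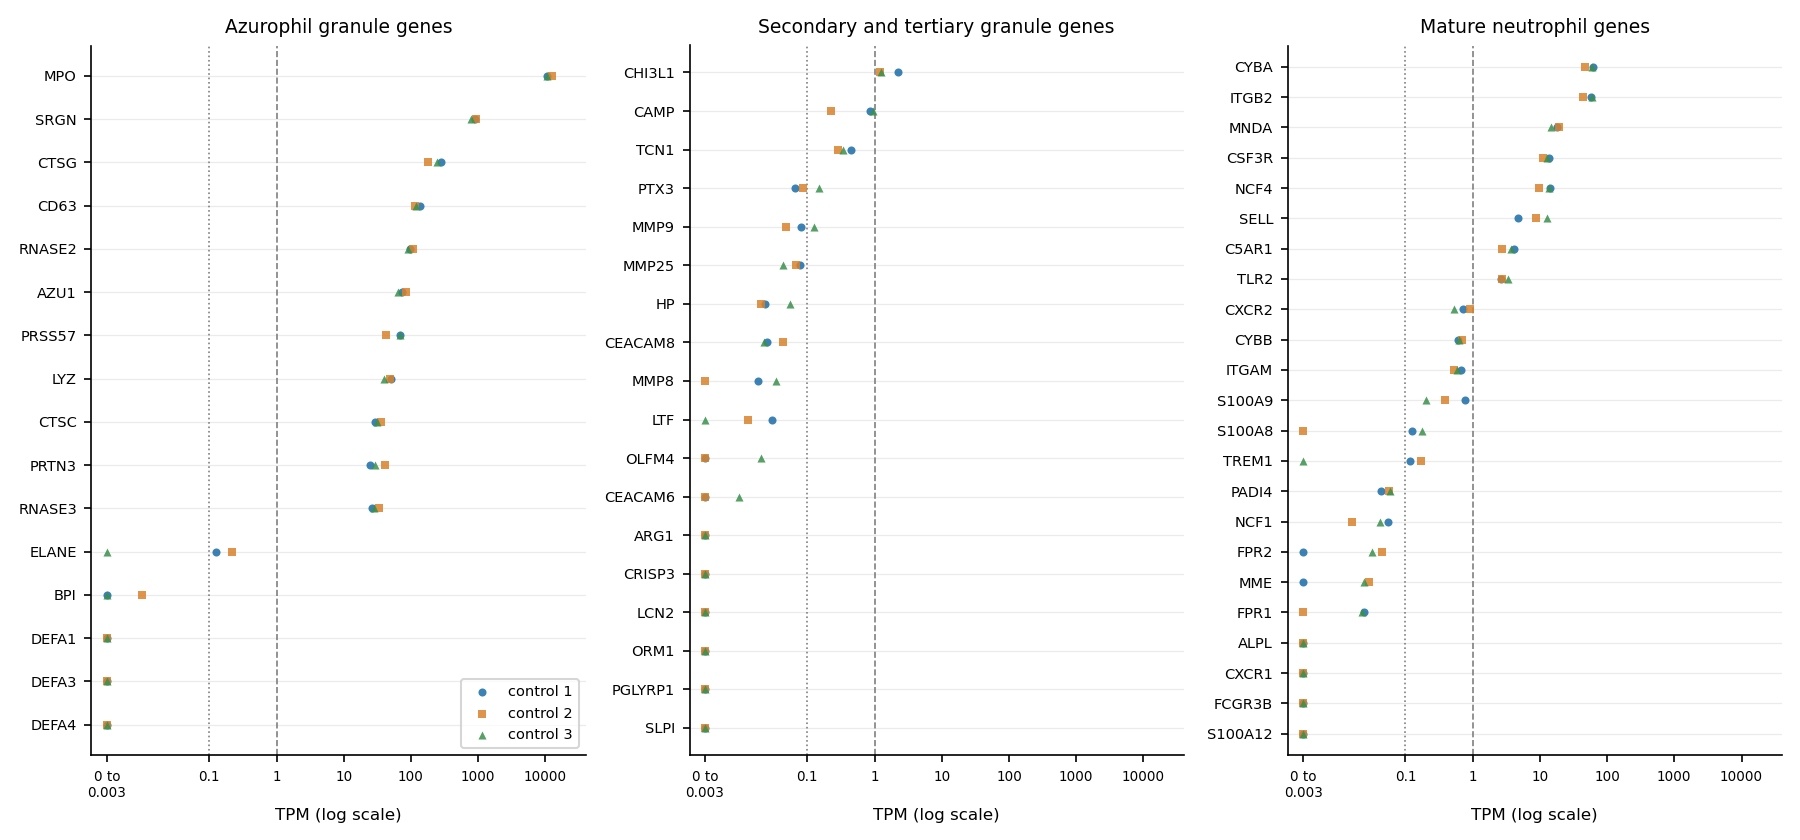
TPM of the members of 3 neutrophil lists (log scale; a few members not reported here are not drawn), with 1 symbol per control library. The dashed line is 1 TPM, the dotted line 0.1 TPM, and values from 0 to 0.003 TPM are drawn at the left edge. Azurophil genes down to RNASE3 lay above 20 TPM in all libraries, while no secondary or tertiary granule gene exceeded 2.20 TPM.

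Programmes of other blood lineages were mostly absent, with single genes that stood out. Of 17 monocyte and macrophage genes 2 were on, CD68 at 4.08, 4.11 and 3.92 TPM and the chemokine receptor gene CCR2 at 1.961, 1.286 and 1.636 TPM. CD14 was at 0.169, 0.237 and 0.187 TPM, and IRF8, a transcription factor gene of monocytes, had no read. Of 19 erythroid genes 2 were on, the erythropoietin receptor gene EPOR at 13.3, 8.73 and 11.3 TPM and KLF1 at 4.998, 4.207 and 4.057 TPM. The globin genes HBB, HBA1 and HBA2 had no read. Of 12 megakaryocyte genes only NFE2 was on, at 10.5, 3.82 and 8.35 TPM.

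The leading genes of the eosinophil and mast cell list differed between libraries. RNASE2 and RNASE3, which could also stand here, were counted in the azurophil list, not in this one. CLC, for the Charcot-Leyden crystal protein, was at 28.4, 53.6 and 90.2 TPM and PRG2, for the major basic protein, at 23.0, 60.7 and 34.0 TPM. IL5RA, for the interleukin 5 receptor, was at 1.24, 1.64 and 2.28 TPM and the histidine decarboxylase gene HDC at 1.98, 1.61 and 1.48 TPM. The exons of PRG2 overlap another gene on the same strand over 791 bases. The mast cell tryptase gene TPSAB1 and the chymase gene CMA1 had no read. In all, 4 of 14 members were on and 7 silent. Control 1 had the lowest level of both CLC and PRG2. In RNA from many cells, a few cells with much of a transcript and many with little cannot be told apart.

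Some lymphoid genes were on without the rest of their programme. The T cell receptor alpha constant gene TRAC was at 36.7, 65.8 and 62.3 TPM, NKG7 at 55.9, 42.4 and 43.7 TPM and CD4 at 45.5, 32.1 and 48.5 TPM. CD5, CD8B and NCAM1 had no read, and CD3E was under 0.1 TPM in each library. Of 18 T and NK cell genes 4 were on. PAX5, the B cell commitment factor gene, was on at 7.31, 9.88 and 13.0 TPM, while EBF1 and MS4A1 (CD20) had no read. SDC1 and IGLL1 were the other 2 of 18 B and plasma cell genes on. None of the 16 genes of non-blood tissues was on, and all 16 were silent.

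Of 19 stem and progenitor genes 5 were on. LMO2 stood at 113, 127 and 96.6 TPM, GATA2 at 75.1, 73.0 and 110 TPM and CD33, a myeloid surface antigen, at 62.6, 67.3 and 66.0 TPM. CD34 had 0, 1 and 1 reads, and KIT was at or under 0.0201 TPM. MEIS1, BAALC and THY1 had no read. Of 10 MHC class II genes none was on, 7 were silent, and the highest was its regulator CIITA at 0.212, 0.125 and 0.244 TPM. Of 13 class I pathway genes 10 were on, led by the beta-2 microglobulin gene B2M at 466, 455 and 363 TPM. With the lengths of a later annotation B2M had a mean of 218 TPM in place of 428, and HLA-E 309 in place of 44.9. B2M thus led at the deposited lengths and HLA-E at the later ones, but the reads were not recounted over the added bases of B2M. HLA-B had 5749, 3767 and 4110 reads. The deposited length of HLA-B is 5.40 times that of the later annotation. If the later length is the right one, TPM understates HLA-B. Reads that fit several class I genes may also not have been counted.

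The list of haematopoietic transcription factors had 27 of 40 genes on and 8 silent. CEBPE had the highest mean, 865 ± 90.3 TPM (SD, n = 3), 2.13 ± 0.224 times the next, LYL1, at 400, 334 and 500 TPM. CEBPA followed at 371, 273 and 319 TPM, MYB at 262, 280 and 298 TPM and SPI1 at 231, 266 and 261 TPM. LYL1, CEBPA and MYB each overlapped with the next in the order, and SPI1 was above CEBPB (111, 125 and 126 TPM) in all 3 libraries. GFI1, a repressor needed for neutrophils, was at 122, 109 and 118 TPM. RUNX1 was at 16.4, 32.6 and 20.5 TPM, highest in control 2. GATA1, the erythroid and eosinophil factor, had 1, 3 and 4 reads, and IRF8, TAL1, GATA3, EBF1 and TBX21 had none. For IRF8, 3 reads would have been 0.0370 TPM at most.

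**Figure D3:**
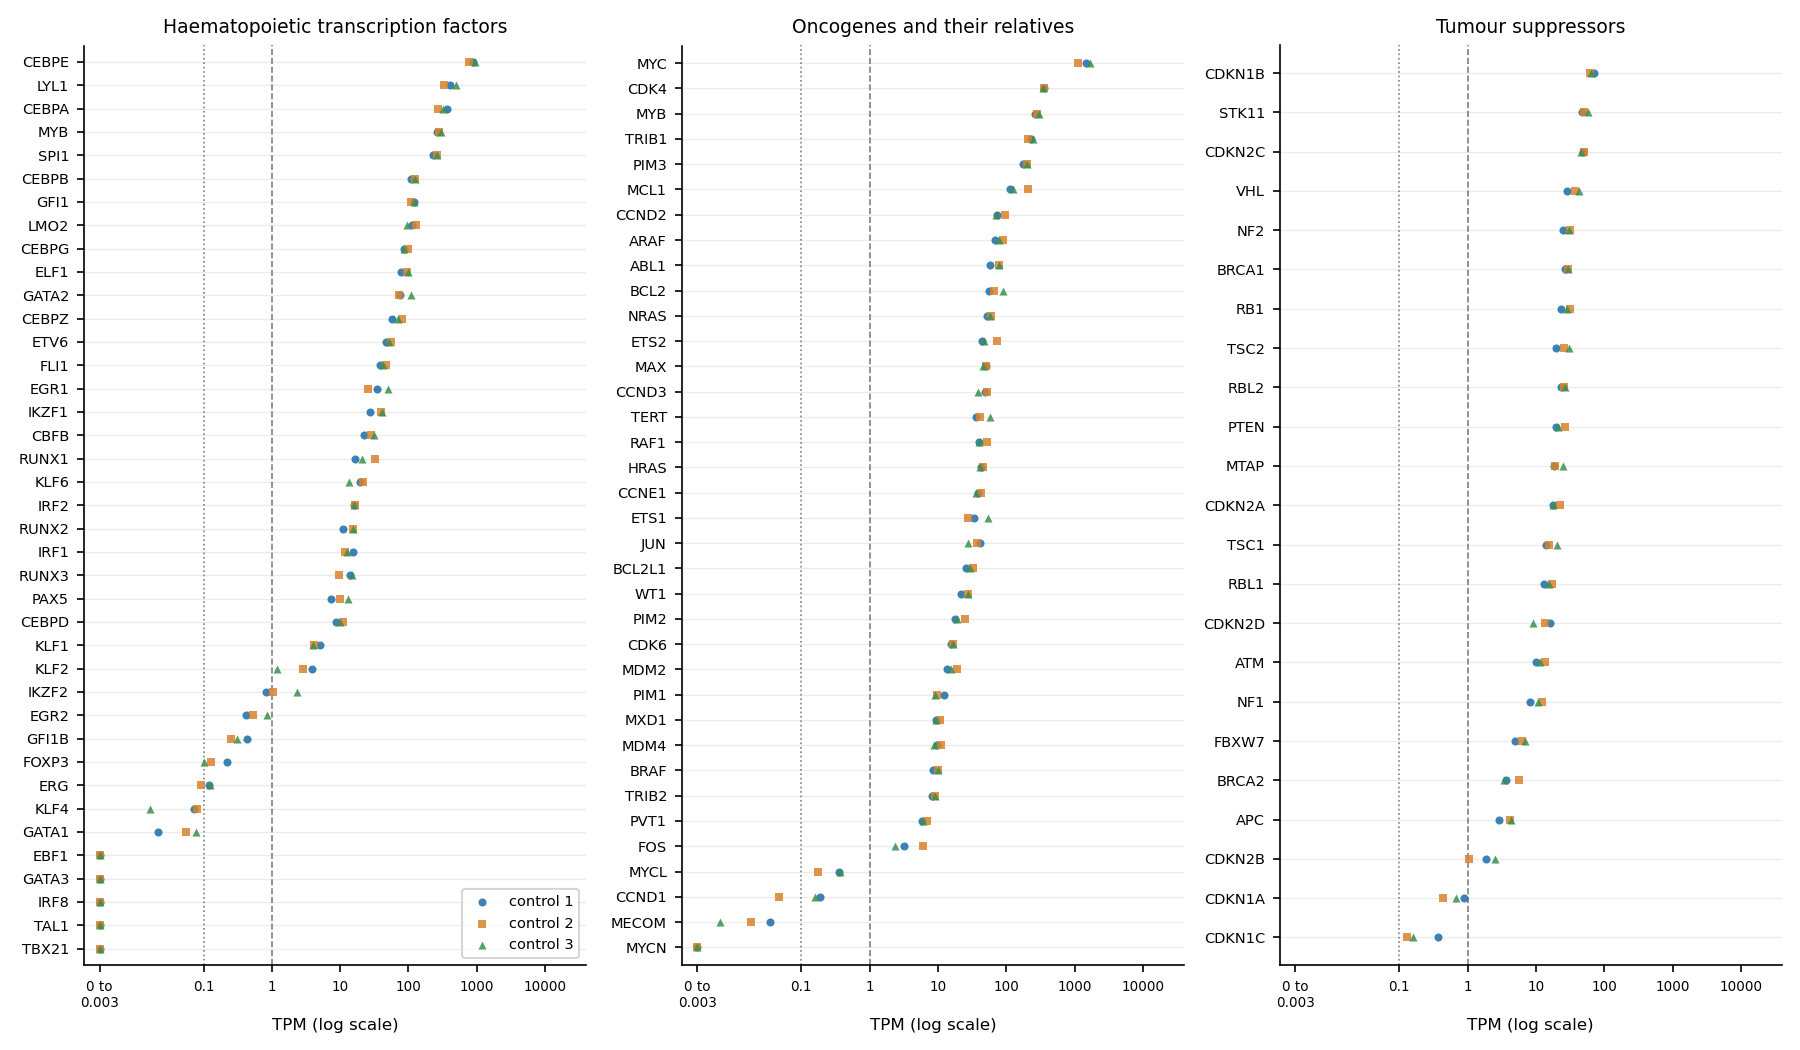
TPM of the haematopoietic transcription factors, oncogenes and tumour suppressors listed (log scale; a few members not reported here are not drawn), with 1 symbol per control library. The dashed line is 1 TPM, the dotted line 0.1 TPM, and values from 0 to 0.003 TPM are drawn at the left edge. CEBPE and MYC lead their panels, and CDKN1A and CDKN1C lie under the dashed line in all libraries.

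HOX genes showed a scattered pattern, with 12 of 39 on (30.8%, against 53.8% of all protein-coding names). Silent were 13 (33.3%), near the 33.6% of all protein-coding names. HOXD13 led at 88.6, 101 and 110 TPM, a gene best known from limb development. HOXA11 was at 27.1, 24.7 and 24.0 TPM and HOXA10 at 12.5, 13.8 and 13.6 TPM. HOXA9, a partner of MEIS1 in many leukaemias, had 1, 2 and 2 reads. Exons of HOXA9 and HOXA10 overlap other genes on both strands, and no source used here gives the strand setting of the counting. HOXB9 differed most between libraries, at 54.1, 13.2 and 25.4 TPM.

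Among 37 oncogenes and their relatives 33 were on and 2 silent. MYC had the highest mean, 1418 ± 283 TPM (SD, n = 3), rank 101 of all names. Its partner MAX stood at 51.0, 49.8 and 46.2 TPM and its antagonist MXD1 at 9.47, 10.6 and 9.43 TPM, so MYC was 29.1 ± 6.98 times MAX. MYCN had no read and MYCL was at 0.352, 0.176 and 0.371 TPM. The cell cycle kinase gene CDK4 was at 352, 352 and 344 TPM, 21.7 ± 0.995 times CDK6. CCND2 and CCND3 were on, whereas CCND1 was at 0.185, 0.0462 and 0.158 TPM. NRAS stood at 52.4, 60.2 and 57.9 TPM. The telomerase gene TERT was at 35.4, 41.1 and 58.2 TPM, BCL2 at 55.9, 65.2 and 88.5 TPM and MCL1 at 114, 206 and 125 TPM. BCL2 and TERT were highest in control 3 and MCL1 in control 2.

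Of 24 tumour suppressors 21 were on and none was silent. CDKN1A, the p21 gene, was at 0.896, 0.430 and 0.669 TPM. CDKN2A, the p16 and p14ARF gene, was on at 18.01, 22.33 and 18.02 TPM, and RB1 at 23.7, 31.4 and 28.5 TPM. CDKN1B, for p27, led the list at 69.9, 61.1 and 63.2 TPM. Of 29 genes often mutated in acute myeloid leukaemia 26 were on, from NPM1 at 1569, 1617 and 1385 TPM to DNMT3A at 2.11, 2.55 and 3.35 TPM. FLT3 was at 1.57, 0.884 and 0.859 TPM and KIT was silent.

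Receptors were on in about the proportions of all protein-coding names for some families and well under them for others. Of 37 cytokine receptor genes 23 were on, of 28 chemoattractant and lipid receptor genes 14, of 21 pattern recognition genes 12 and of 48 nuclear receptors 23. Only 8 of 35 receptor tyrosine kinases were on, with 21 silent. IL2RG, the common gamma chain, led the cytokine receptors at 180, 154 and 191 TPM, before the tumour necrosis factor receptor gene TNFRSF1A at 146, 116 and 147 TPM. Both chains of the interferon gamma receptor were on, IFNGR1 at 51.4, 57.1 and 47.5 TPM and IFNGR2 at 50.8, 52.7 and 44.6 TPM. IL10RA had no read.

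The sphingosine phosphate receptor gene S1PR4 stood at 175, 163 and 203 TPM and the marrow-homing receptor gene CXCR4 at 99.4, 111 and 74.6 TPM, while S1PR1 had at most 0.0207 TPM. The leukotriene B4 receptor gene LTB4R was on at 29.6, 28.2 and 31.1 TPM. Among pattern recognition genes a pair from DNA sensing led, TLR9 at 58.4, 64.5 and 60.4 TPM and TMEM173, the STING gene, at 43.8, 49.0 and 45.7 TPM. TLR5 and TLR7 were silent. TLR9 shares exons with another gene on its strand over 3341 bases, so its reads may not all be its own. Of the tyrosine kinases, FGFR1 stood at 25.9, 39.9 and 34.7 TPM and RET at 33.3, 22.9 and 38.5 TPM. EGFR and ALK had no read. The nuclear receptors ESRRA, at 97.6, 105 and 117 TPM, and NR1H2 led. The retinoic acid receptor gene RARA, through which retinoic acid makes HL60 cells differentiate, was at 14.55, 29.03 and 19.89 TPM, and RARB, ESR1 and PGR had no read. Of 18 integrins 8 were on, led by ITGA5 at 64.2, 63.6 and 63.0 TPM.

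Src family and related kinases were on at 54.55%, about the 53.8% of all protein-coding names. Fc receptor and Siglec genes were on at 29.4%. Of 11 Src family and related kinases 6 were on, SYK at 77.3, 96.5 and 93.6 TPM, BTK at 85.8, 86.9 and 90.4 TPM, and FES, FYN, LYN and YES1. FGR was at 1.41, 0.418 and 0.778 TPM, highest in control 1. The T cell kinase gene LCK was silent. Of 17 Fc receptor and Siglec genes 5 were on and 7 silent. After CD33 came FCER1G, the signalling chain of Fc receptors, at 15.6, 8.28 and 10.5 TPM, and FCGR2A at 3.79, 2.84 and 2.84 TPM.

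Response genes were on at 62.5% in the interferon list and 75% in the low oxygen list, against 53.8% of all protein-coding names. Of 16 interferon-induced genes 10 were on and 2 silent, led by ISG15, a ubiquitin-like modifier, at 60.1, 58.8 and 72.2 TPM and IFI6 at 31.94, 21.16 and 34.96 TPM. The antiviral genes MX1 and MX2 were under 0.3 TPM in each library, and IFI44L had no read. Of 12 genes induced by low oxygen 9 were on, with the glucose transporter gene SLC2A1 at 53.7, 78.2 and 60.1 TPM, while CA9 and EGLN3 had no read. Of 10 replication-type histone genes, whose transcripts mostly lack a poly(A) tail, 8 were on, led by HIST1H1C at 101.3, 82.2 and 107.1 TPM. Their levels in a poly(A)-selected library are not comparable with those of other genes.

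Heme synthesis, which supplies myeloperoxidase with its cofactor, was on in 8 of 9 genes. The housekeeping first enzyme ALAS1 was at 98.3, 127 and 90.0 TPM, and the erythroid form ALAS2 had no read. UROD was at 110, 96.1 and 112 TPM. Of 20 chemokine and cytokine genes 5 were on, led by TGFB1 at 110, 124 and 143 TPM and VEGFA at 45.3, 45.1 and 41.7 TPM. CSF2, CSF3, IL6, CCL2 and CXCL1 had no read. Of 10 genes of the SKI and SMAD family 9 were on, SKI being the highest, and SMAD2 was at 17.7, 21.8 and 19.4 TPM.

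The 3 libraries were alike in most genes but not within counting noise. The biological coefficient of variation estimated by edgeR, a relative SD between libraries beyond counting noise, was 0.153 over 15313 genes. Its median fell from 0.224 in the 3829 genes with the lowest levels to 0.111 in the 3828 with the highest. Pairs were compared over the 7844 genes with a mean of at least 10 TPM and at least 100 reads in every library. Between 71.5% and 75.7% of these genes differed by more than counting noise in each pair. No pair of libraries thus looked like 1 library deposited again. For these genes the highest library exceeded the lowest by a median factor of 1.20 in CPM (reads as a share of the library total) scaled between libraries by edgeR's TMM method. The factor was over 2 in 74 genes (0.943%). Of these 74, control 2 was the lowest in 42, and the highest value was in control 1 for 29, in control 2 for 14 and in control 3 for 31. Over all 7844 genes control 2 was the lowest in 2147 and the highest in 3111, against 2353 highest in control 1 and 2380 in control 3.

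**Figure D4:**
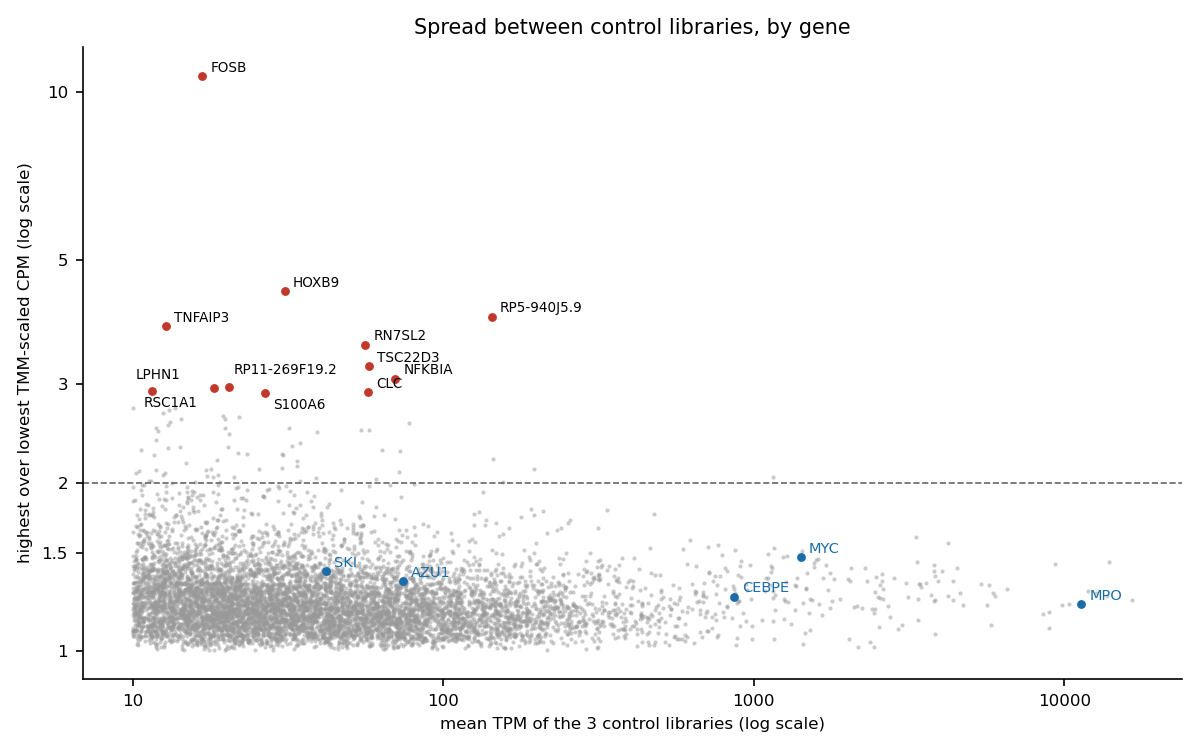
Highest over lowest TMM-scaled CPM of the 3 control libraries against mean TPM (both log scale), 1 grey point for each of 7844 genes. The 12 genes with the largest ratios are red, the 4 marker genes and SKI are blue, and the dashed line is a ratio of 2. FOSB lies above the rest at 10.7, and the blue genes lie under 1.5.

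FOSB, an immediate early transcription factor gene, spread most, at 6.57, 70.3 and 8.21 CPM from 318, 4154 and 471 reads. TNFAIP3, for the A20 inhibitor of NF-kappaB, was at 13.4, 36.3 and 9.52 CPM, and NFKBIA, for the inhibitor I-kappaB-alpha, at 37.3, 87.7 and 28.5 CPM. TSC22D3, a glucocorticoid-induced gene, was highest in control 2 like these 3 genes, at 84.6, 130.5 and 40.3 CPM. HOXB9, by contrast, was highest in control 1, at 47.5, 10.8 and 20.4 CPM, as was S100A6, at 13.1, 4.50 and 6.68 CPM. CLC was highest in control 3, at 5.85, 10.3 and 17.0 CPM. FOSB, TNFAIP3 and NFKBIA belong to a list of 16 immediate early genes, of which 13 were on and none silent. Of those 13, 7 were highest in control 2 and 5 were lowest there. FOS, at 3.17, 6.02 and 2.34 TPM, and ATF3, at 17.6, 24.0 and 16.2 TPM, were among the 7. IER2, at 346, 255 and 348 TPM, was lowest in control 2. The ratios of MPO, CEBPE, AZU1, SKI and MYC were 1.21, 1.25, 1.34, 1.39 and 1.47.

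NFKBIA and TNFAIP3 are known targets of NF-kappaB, and the 250 bases before their starts are shown because both genes were highest in control 2. The promoters of FOSB and TSC22D3, also highest in control 2, are not shown. The regions are chr14:35404750-35404999 (minus) for NFKBIA and chr6:137867009-137867258 (plus) for TNFAIP3, on GRCh38.p14. Capitals mark the NF-kappaB core GGGNNTTNC on either strand.
NFKBIA: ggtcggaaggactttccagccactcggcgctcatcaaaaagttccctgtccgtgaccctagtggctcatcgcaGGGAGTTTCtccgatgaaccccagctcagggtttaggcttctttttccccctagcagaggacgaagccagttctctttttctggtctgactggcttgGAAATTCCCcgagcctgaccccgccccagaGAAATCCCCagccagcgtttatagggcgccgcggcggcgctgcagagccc
TNFAIP3: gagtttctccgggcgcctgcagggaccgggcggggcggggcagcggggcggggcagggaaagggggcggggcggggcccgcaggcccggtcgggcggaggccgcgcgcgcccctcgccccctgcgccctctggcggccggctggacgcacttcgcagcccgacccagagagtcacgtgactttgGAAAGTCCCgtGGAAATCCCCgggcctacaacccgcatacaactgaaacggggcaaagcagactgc
Each held 3 matches, at -177 to -169, -80 to -72 and -50 to -42 in NFKBIA and at -66 to -58, -55 to -47 and -54 to -46 in TNFAIP3, the last pair overlapping. Of all 35116 promoters 14.2% held at least 1, and the share with 3 was not counted. Both genes were chosen as known targets, so their matches are a description of letters, not of binding. Why they were highest in control 2 was not tested.

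Whole lists also moved together between libraries. All 79 ribosomal protein genes were highest in control 1, where their median deviation from the mean of the 3 libraries was 0.23 on the log2 scale of TMM-scaled CPM, against -0.14 in control 2 and -0.09 in control 3. Of 15 chaperone genes 14 were highest in control 1. Of 24 proliferation genes 18 were highest in control 2 and 16 lowest in control 3. Of 10 interferon-induced genes that were on, 8 were highest in control 3 and 7 lowest in control 2. By comparison, the 27 transcription factors on were divided 8, 11 and 8 by highest library. Over all 9915 protein-coding genes on, 2790, 3743 and 3382 were highest in controls 1, 2 and 3.

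**Figure D5:**
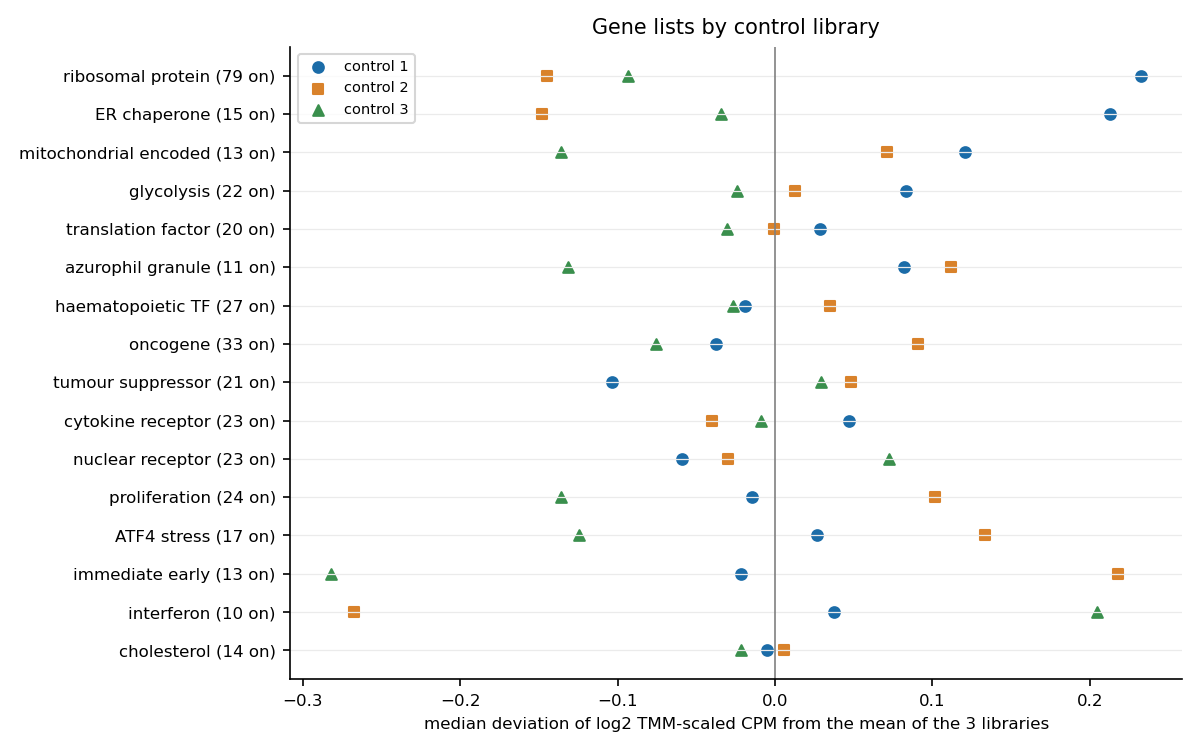
Median deviation of each list's genes that were on from the mean of the 3 control libraries, in log2 TMM-scaled CPM, with 1 symbol per library. The number of genes on is in parentheses, and the vertical line is no deviation. Ribosomal protein genes deviated by 0.23 in control 1, and immediate early genes by 0.22 in control 2 and -0.28 in control 3.

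Some properties of the deposited lengths bear on levels. For 649 protein-coding names the length was 1.9 to 2.1 times that of GENCODE release 29, and 399 names exceeded 2 times, 161 of them on chromosome 6. If the later length is the right one, TPM of such genes is low by about the same factor. Where the deposited length is the shorter one, TPM falls with the later length. The reads were not recounted over the added bases, so such a fall does not show the deposited level to be too high. With release 29 lengths the mean of CD4 went from 42.0 to 82.8 TPM, that of BTK from 87.7 to 159.6 and that of IFNGR2 from 49.4 to 100.6. Means fell for BCL2 from 69.9 to 44.8 TPM, for LYN from 23.2 to 12.5, for SMAD2 from 19.6 to 7.32 and for DNMT3A from 2.67 to 1.51. With release 29 lengths for protein-coding names, 16 list members changed class, 5 of them to on (CYBB, CD79A, FCGR1A, HOXC8 and TNF) and 4 from on (ERBB2, ESRRB, IL5RA and SKIL). ERBB2 and SKIL had the same length in both annotations and left only through the rescaling of TPM. The class changes and the examples of length were chosen after their values were seen. Features under 200 bases, such as AC139149.1, held 4.46% of TPM.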

How the data were processed

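The labels' protocols state that poly(A) RNA was taken through a strand-specific library kit. Alignment with TopHat2 to hg19 (GRCh37) and counting with featureCounts are named in the submitters' processing notes, beside bcl2fastq, DESeq and DESeq2. No source used here gives their versions, the annotation, the strand setting or how shared reads were treated. The deposited table holds unnormalized counts with a length for each gene name, of which the control columns were used.

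TPM was computed from the counts and deposited lengths (Python 3.11.15, pandas 2.3.3). Spread was estimated with edgeR 4.0.16 (R 4.3.3) after filterByExpr and TMM, and checked with DESeq2 1.42.0 size factors. Gene types, exonic lengths and overlaps were taken by symbol from GENCODE release 29, which matched 60.8% of names. No comparison between groups and no significance test was made. The 42 gene lists, with 835 genes, and the rules were chosen with earlier results of these data known. Exons of 154 members overlap another gene on the same strand and those of 271 one on the opposite strand. From each list the text names up to 6 highest and 6 lowest members, and any member of 6 lists. Genes for spread are the 12 with the largest ratio. The scripts were tested on simulated data. Alternatives were other cut-offs, scalings and lengths, and leaving out each library. A few list members are counted but not reported by name here.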

Additional observations from a re-analysis of the deposited data

How the results depend on the processing

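No paired analysis was possible because no groups were compared. The numbers of genes on (11884 to 14872) and silent (26439 to 34890) stayed within 1.5 times their reported values under the alternatives run: cut-offs of 0.5 and 2 TPM for on and of 0.05 TPM or no read for silent, CPM in place of TPM for on, TMM or DESeq2 scaling, no mitochondrial genes, each library left out, and, chosen after seeing the data, release 29 lengths and no features under 200 bases. The share of TPM in the 10 most abundant names went from 11.9% to 11.1% without mitochondrial genes, and that of the 100 most abundant from 39.0% to 35.2%. With release 29 lengths for every matched name they became 41.3% and 59.8%, since MIR3654, with 56 bases in place of 5197, then held 33.6% of TPM. With those lengths for protein-coding names only, both shares moved by less than their SD. Over the libraries left out the shares were 11.73% to 12.01% and 38.1% to 39.5%. The coefficient of variation was 0.153 with DESeq2 size factors, 0.158 without a filter and 0.139 to 0.164 without 1 library. At a cut-off of 2 TPM the counts on of 4 of 42 lists moved by over 1.5 times: secondary and tertiary granule (1 to 0), monocyte (2 to 1), eosinophil and mast cell (4 to 2) and integrin (8 to 5). With release 29 lengths of every matched name the first became 0 and the eosinophil and mast cell count 2. At 1 CPM 4 histone genes were on in place of 8. At 0.5 TPM 8 stem and progenitor genes were on in place of 5. Depth limits statements on genes with few reads, such as ELANE, HOXA9 and GATA1.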

Other observations

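Gene families were also counted by symbol pattern, a grouping chosen after the data were seen. Of 379 olfactory receptor names 1 was on and 367 were silent, and all 41 defensin names had no read in any library, some of them near-identical copies. Of 44 collagen names 1 was on, and of 37 chemokine names 1 was on. At the other end, all 76 mitochondrial ribosomal proteins were on, with 8222, 8490 and 8030 TPM in all, and so were 37 of 39 proteasome subunits. Of 507 ZNF zinc finger names 293 were on (57.8%), near the 53.8% of all protein-coding names. Their median was 2.50 TPM, against 2.53 for all protein-coding names.

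Most non-coding names were not on, but of all names only 23.7% were. Of 1464 names annotated as lincRNA 111 were on (7.58%) and of 4747 processed pseudogenes 387 (8.15%), both under that share. The 343 snoRNA names lay above it, with 118 on (34.4%), and all 145 silent ones had no read. In a feature of 84 bases 3 reads were worth up to 2.27 TPM, so in short features few reads pass 1 TPM. Shares on of short and long features are therefore not comparable. The name MIR3654 carried 472219, 476539 and 529612 reads over a deposited length of 5197 bases, where release 29 has 56 bases for it.

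The TATAAA motif was in 5.43% of the 250-base promoters of genes on and in 14.8% of those of silent protein-coding genes, given as a description with no test.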
